A study of Mus musculus with 12 samples.

Results

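The effect of *Trp53* deletion on the prostate transcriptome was taken across both transgene backgrounds, as the difference between the 6 libraries labelled Trp53pc-/- or "Pb-ERG, Trp53pc-/-" (deleted) and the 6 labelled WT or Pb-ERG (intact). The genes described here were chosen by 1 rule. A gene was kept when its 6 deleted values all lay above, or all lay below, the 6 intact values. The rule kept 47 of the 17623 genes tested (0.267%), 23 of them higher in deleted prostates (0.131%) and 24 lower (0.136%). These values chose the genes, so their levels and fold changes are given as a description and not as a test. Of the 41042 genes in the tables, 23419 had too few fragments to be tested, and 8 of those were separated in the same way.

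The RNA came from whole prostates of C57BL/6 mice aged 15 months, with 3 mice in each of the 4 genotypes. Pb-ERG mice carry an *ERG* transgene and Trp53pc-/- mice carry floxed *Trp53* alleles, and promoters of the probasin gene (Pb) drive the transgene and the Cre recombinase in prostate epithelial cells. The "Pb-ERG, Trp53pc-/-" mice, called double mutant here, carry both. The genotypes as the study gives them name Cre in the deleted groups and not in the intact ones, so Cre and the loss of *Trp53* cannot be told apart. Stromal, vascular and immune cells of the same tissue keep their *Trp53* alleles, and in bulk tissue fewer cells of a type and less RNA per cell cannot be told apart. The libraries held 19747635 to 32565774 fragments (median 23786832). Replicate 3 of the double mutant stood apart from the other 11 libraries, with *Pbsn*, the probasin gene, at 53.3 FPKM (fragments scaled to exon length and library depth) against 5505 or more elsewhere, and with the highest summed level of skeletal muscle genes, 810 FPKM against 196 or less.

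p53 is a transcription factor that is held at low levels by the ubiquitin ligase Mdm2 and is stabilized by DNA damage and other stresses. It then binds paired half-sites near its target genes and raises the transcription of genes for cell cycle arrest (*Cdkn1a*), apoptosis (*Bax*, *Bbc3*, *Eda2r*), its own feedback (*Mdm2*, *Ccng1*) and metabolism (*Sesn1*, *Sesn2*). In unstressed tissue much of this transcription runs at a basal level. The prostate epithelium secretes large amounts of glycosylated protein, which is folded in the endoplasmic reticulum by chaperones whose genes are controlled by the unfolded protein response.

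*Trp53* itself (chromosome 11, 69580359 to 69591873, GRCm38) did not separate the groups. Its level was 8.87 FPKM in the lowest intact library and 22.3 in the highest, with a median of 12.3, and 5.32 to 21.5 with a median of 10.9 in deleted libraries. The difference of means on the log2(FPKM + 1) scale was -0.21 (SE 0.19), with an exact permutation p of 0.295 (two-sided, labels exchanged within each transgene background, smallest p the design allows 0.005). FPKM counts fragments over all exons, those outside the floxed part and those of the stroma included, so this level does not check the deletion. *Erg* was higher in the libraries labelled with the transgene by 3.30 (log2, exact permutation p = 0.005, the smallest possible).

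No gene passed the threshold of the study (adjusted p under 0.001) or an adjusted p under 0.05 for *Trp53* deletion. Fitted with limma on log2(FPKM + 1) with the transgene as a covariate and Benjamini-Hochberg adjustment over 17623 genes, the lowest adjusted p was 0.351. limma voom on the fragments recovered from the FPKM values also called 0 genes at an adjusted p under 0.05. At an unadjusted p under 0.05, limma found 1786 genes (10.1%), 1383 higher in deleted prostates (7.85%) and 403 lower (2.29%). The mean was higher in deleted prostates for 11512 genes (65.3%) and lower for 6111 (34.7%), and over all genes the median log2 fold change was 0.08. That imbalance moved with the scaling. When each library was rescaled by the median ratio of its genes, the median was 0.01 and the split at p under 0.05 was 903 higher and 952 lower. The 17 genes that took over 1% of the fragments of some library held 3.04% to 34.7% of the fragments of a deleted library (median 19.0%) and 7.74% to 30.1% of an intact one (median 26.3%). Under the median-ratio scaling 101 genes were separated, 45 higher and 56 lower, and 11 of the 47 were among them. Among the 8 of those 11 that were lower were *Ccng1*, *Calr* and *Chordc1*. The 3 that were higher were *Gm17233*, *Srrm4* and *Psg27*. Of these, *Srrm4* and *Psg27* had means of 0.296 and 0.620 FPKM in deleted libraries. Leaving out 1 library gave 50 (without replicate 3 of WT) to 248 separated genes (without replicate 3 of Trp53pc-/-). Of the 248, 209 were higher. Without replicate 3 of the double mutant there were 90. Fewer libraries overlap less easily, but the total also depended on which library was left out. The cause of that spread was not tested.

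**Figure D1:**
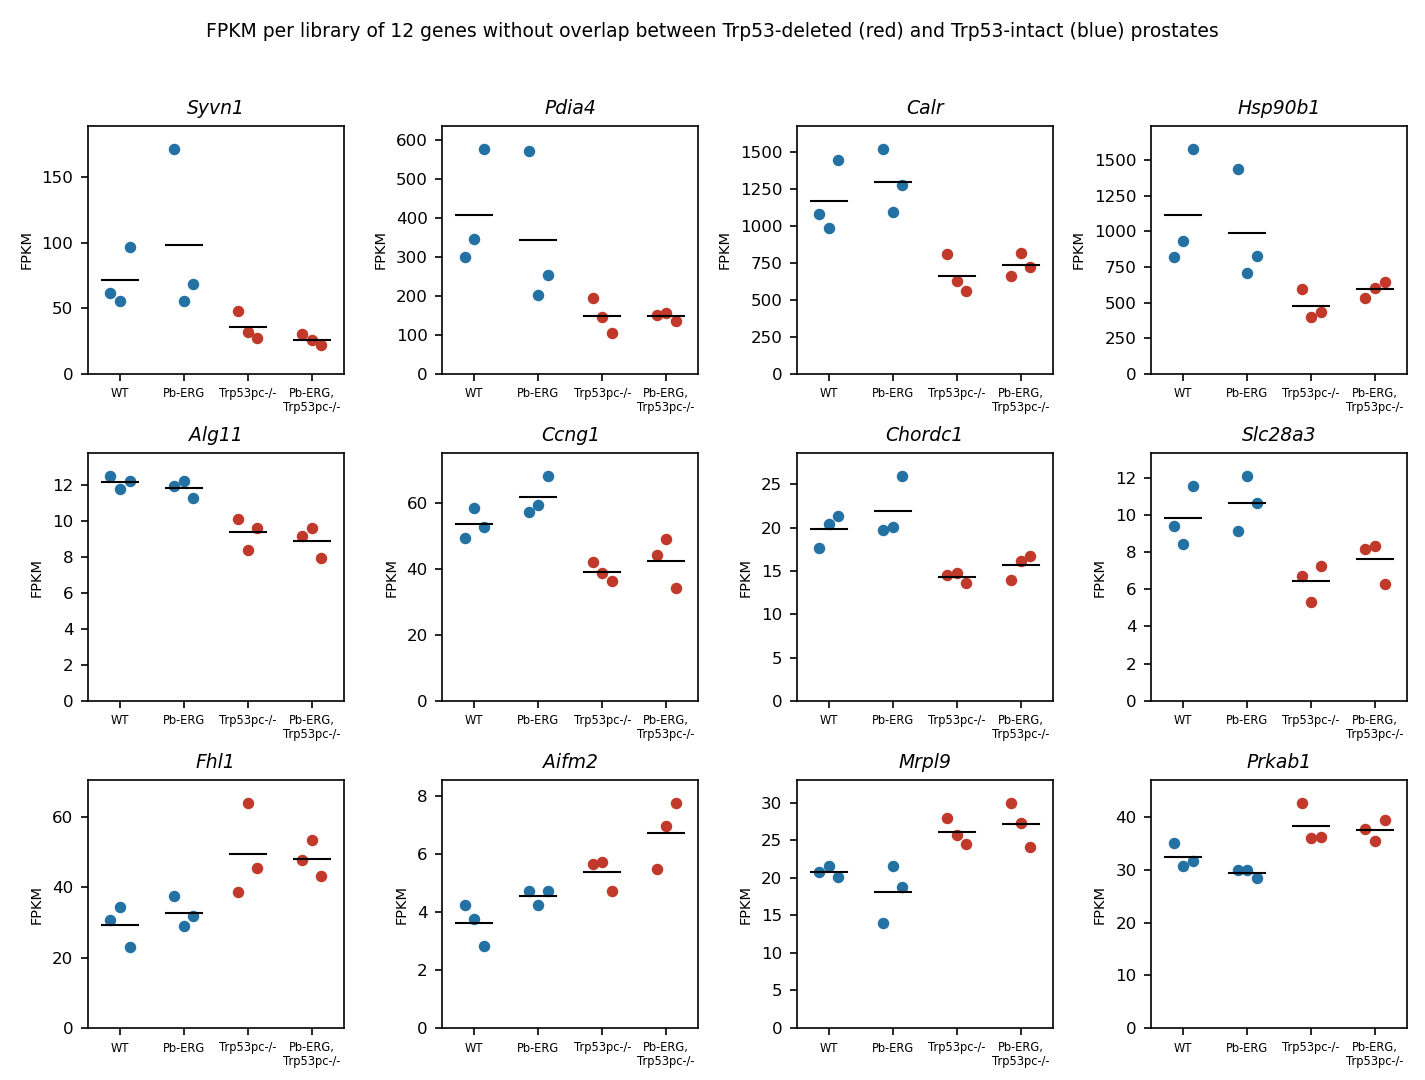
FPKM of 12 separated genes in each library, by genotype (points, with the group mean as a line, 3 mice a group). Red points are *Trp53*-deleted and blue points *Trp53*-intact, each y axis starts at 0, and in each panel no red point reaches the range of the blue points.

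*Ccng1*, which encodes cyclin G1, a p53 target that acts back on Mdm2, was the gene of the p53 feedback list that separated the groups. Its level was 34.2 FPKM in the lowest deleted library, 40.5 at the median and 49.2 in the highest, against 49.5, 58.0 and 68.3 in intact libraries. The deleted values thus lay just under the intact ones, with 49.2 against 49.5 FPKM as the nearest pair. The mean was 40.8 ± 5.49 FPKM in deleted and 57.6 ± 6.46 in intact prostates (SD, n = 6 each), a 1.41-fold difference. The log2 fold change was -0.49 (SE 0.10), and it was -0.44 between Trp53pc-/- and WT and -0.54 between double mutant and Pb-ERG mice. *Ccng1* lies on chromosome 11, 40748552 to 40755311, on the minus strand. The 250 bases before its start in RefSeq (GRCm38.p6, chr11:40755287-40755536, minus strand) are shown because they hold a match to the p53 half-site, in capitals, 185 bases before the start.

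Ccng1: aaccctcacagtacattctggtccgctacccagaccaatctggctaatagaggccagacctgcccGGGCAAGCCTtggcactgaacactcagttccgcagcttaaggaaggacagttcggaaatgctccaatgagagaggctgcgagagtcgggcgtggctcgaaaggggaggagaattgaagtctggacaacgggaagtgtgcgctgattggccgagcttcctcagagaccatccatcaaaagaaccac

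A half-site match of this kind is common. It was found in the promoter windows (250 bases before to 50 after the start, both strands) of 9.55% of the 27025 genes that have one, in 3 of the 35 separated genes with a window (8.57%; *Ccng1*, *Hsp90b1* and *Abracl*), and in 15 of 57 genes of the p53 lists (26.3%).

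*Eda2r*, a receptor of the tumour necrosis factor family and a p53 target, had the smallest p of all tested genes and missed the rule by 1 pair of libraries. It was at 0.381 FPKM in the lowest deleted library, 0.848 at the median and 1.60 in the highest, and at 1.33, 2.16 and 3.58 in intact libraries. A single deleted library thus exceeded a single intact one, and within each transgene background the 3 deleted values lay below the 3 intact ones. Its log2 fold change was -0.81 (SE 0.12, Benjamini-Hochberg adjusted p = 0.351 with limma), -0.86 without and -0.77 with the transgene, and under the median-ratio scaling its adjusted p with limma was 0.0535. Under that scaling *Eda2r* met the rule, as did the p53 targets *Ephx1* and *Sesn2*, all 3 lower in deleted prostates. *Ephx1*, an epoxide hydrolase listed as a p53 target, was also 1 pair from separation, at 10.8 to 58.2 FPKM (median 38.7) in deleted and 57.9 to 77.6 (median 68.4) in intact prostates, with a log2 fold change of -0.99 (SE 0.33).

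Other p53 targets did not move in 1 direction. The stress sensor *Sesn2* was at 4.12 ± 0.849 FPKM in deleted and 6.69 ± 2.89 in intact prostates (log2 fold change -0.52, SE 0.17). The cytokine gene *Gdf15*, named here after its values were seen, was at 0.254 ± 0.246 and 0.800 ± 0.342 FPKM (-0.52, SE 0.16). *Cdkn1a*, which encodes the cell cycle inhibitor p21, was at 11.6 ± 13.7 FPKM in deleted and 13.0 ± 10.7 in intact prostates (-0.37, SE 0.33). The intact values were 3.54 to 7.11 FPKM in WT and 11.6 to 29.7 in Pb-ERG mice, so its spread was mainly between the transgene backgrounds. *Mdm2* was at 18.3 ± 4.36 and 18.5 ± 2.87 FPKM (-0.03, SE 0.13), and its sign turned with the library left out. The log2 fold changes were -0.28 (SE 0.14) for *Zmat3* and -0.18 (SE 0.19) for *Trp53inp1*. *Phlda3*, at 0.10 (SE 0.22), took the other sign under the median-ratio scaling. The apoptosis genes *Bax* and *Bbc3* had log2 fold changes of 0.16 (SE 0.22) and 0.29 (SE 0.19), and *Sesn1* of 0.32 (SE 0.19). *Plk2*, a polo-like kinase, was higher in deleted prostates (0.84, SE 0.30), by 0.16 without the transgene and by 1.51 with it (Benjamini-Hochberg adjusted p of the interaction 0.746 with limma).

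Counted over whole lists, 6 of the 9 tested feedback genes were lower in deleted prostates, where 34.7% of all genes were. Their median log2 fold change was -0.09, beside 0.08 for all tested genes. Of the arrest targets 2 of 11 were lower (median 0.25), of the apoptosis targets 5 of 16 (0.09), of the DNA repair targets 2 of 6 (0.03) and of the metabolism and other targets 9 of 27 (0.22). Without replicate 3 of the double mutant the arrest median was 0.0046 and that of metabolism 0.12, and without replicate 1 of Pb-ERG the latter was 0.04. The apoptosis median was -0.01 under the median-ratio scaling and -0.02 without replicate 1 of Pb-ERG. In the metabolism list 5 genes were higher and 3 lower at an unadjusted p under 0.05, against 7.85% and 2.29% of all genes. 1 of those 5 was *Prkab1*, the β1 subunit of the AMP-activated kinase, which was separated: it was at 35.5 to 42.8 FPKM (median 37.1) in deleted and 28.5 to 35.2 (median 30.4) in intact prostates (log2 fold change 0.28, SE 0.08).

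**Figure D2:**
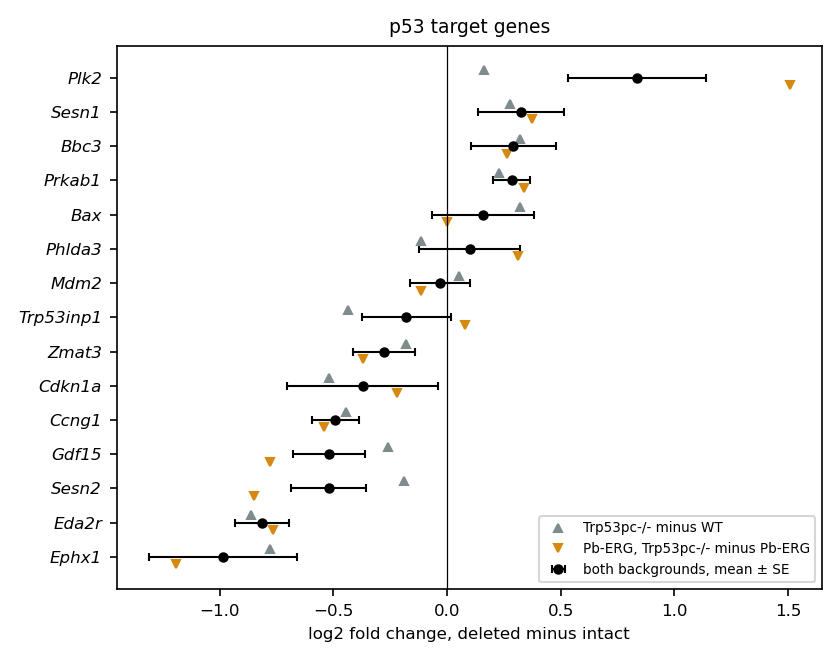
Log2 fold change of 15 p53 targets described in the text, deleted minus intact, for all 12 libraries (with SE) and within each transgene background. *Eda2r* and *Ccng1* lie left of 0 with both backgrounds close together, whereas *Mdm2* lies at -0.03 and the values of *Plk2* in both backgrounds lie far apart (0.16 and 1.51).

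Of the 24 genes that were lower, 7 encode proteins of folding, glycosylation and quality control in the endoplasmic reticulum, a grouping made after the genes were seen. The 2 lists written later for these functions held 4 of them among 26 tested genes and 3 among 29, where 0.136% of all tested genes were separated lower. Those lists were written with these genes known, so the shares do not test the grouping. 1 of the 7, *Syvn1*, had the largest fold change of the set on the log2(FPKM + 1) scale, where genes at low FPKM are compressed. It encodes the HRD1 ubiquitin ligase that marks misfolded proteins for degradation (chromosome 19, 6046576 to 6053712). It was at 21.8 FPKM in the lowest deleted library, 28.7 at the median and 47.8 in the highest, and at 55.2, 65.3 and 172 FPKM in intact libraries. Its log2 fold change was -1.35 (SE 0.28), a 2.76-fold difference of means. *Pdia4*, a protein disulfide isomerase (chromosome 6, 47796142 to 47813512), was at 103, 147 and 194 FPKM against 201, 322 and 577 (-1.26, SE 0.27). For *Pdia4* the highest deleted library and the lowest intact one lay close together, and the other 5 intact libraries were at 253 FPKM or more.

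The lectin chaperones calreticulin and calnexin, which hold newly made glycoproteins until they fold, were both separated. *Calr* (chromosome 8, 84841850 to 84846934) was at 558, 694 and 816 FPKM in the lowest, median and highest deleted library and at 985, 1188 and 1525 FPKM in intact ones (log2 fold change -0.82, SE 0.21). *Canx* (chromosome 11, 50293961 to 50325673), named here after its values were seen, was at 90.2, 135 and 150 against 158, 171 and 193 FPKM (-0.42, SE 0.13). *Calr* was thus among the most abundant transcripts of the set and *Canx* differed by 1.32-fold. *Hsp90b1*, which encodes the chaperone GRP94 (chromosome 10, 86690840 to 86705509, named likewise), was at 396, 563 and 646 FPKM against 707, 880 and 1582 (-0.93, SE 0.26).

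Further members of the secretory pathway were *Alg11*, a mannosyltransferase that builds the N-glycan precursor, and *Ccpg1*, a receptor for autophagy of the endoplasmic reticulum. *Alg11* was at 7.92, 9.37 and 10.1 FPKM in deleted and 11.3, 12.1 and 12.5 in intact libraries (-0.36, SE 0.09), a small difference over a small spread. *Ccpg1* was at 31.4, 50.9 and 57.9 against 58.8, 68.7 and 81.7 FPKM (-0.60, SE 0.16). *Gmds*, the first enzyme of GDP-fucose synthesis, was at 14.9, 38.3 and 43.3 against 45.5, 48.3 and 59.8 FPKM (-0.56, SE 0.22), and its lowest value came from replicate 3 of the double mutant. The set counts some loci more than once. *1810014B01Rik* and the annotated miRNA *Gm25745* overlap *Hsp90b1*, the readthrough gene *DYX1C1CCPG1* spans *Ccpg1*, and *Gm20634* spans the histone gene *Hist2h3c1*, so the 47 genes lie at 43 loci. Whether fragments were counted by strand is not given in the sources used here, and the values of overlapping genes cannot be told apart.

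**Figure D3:**
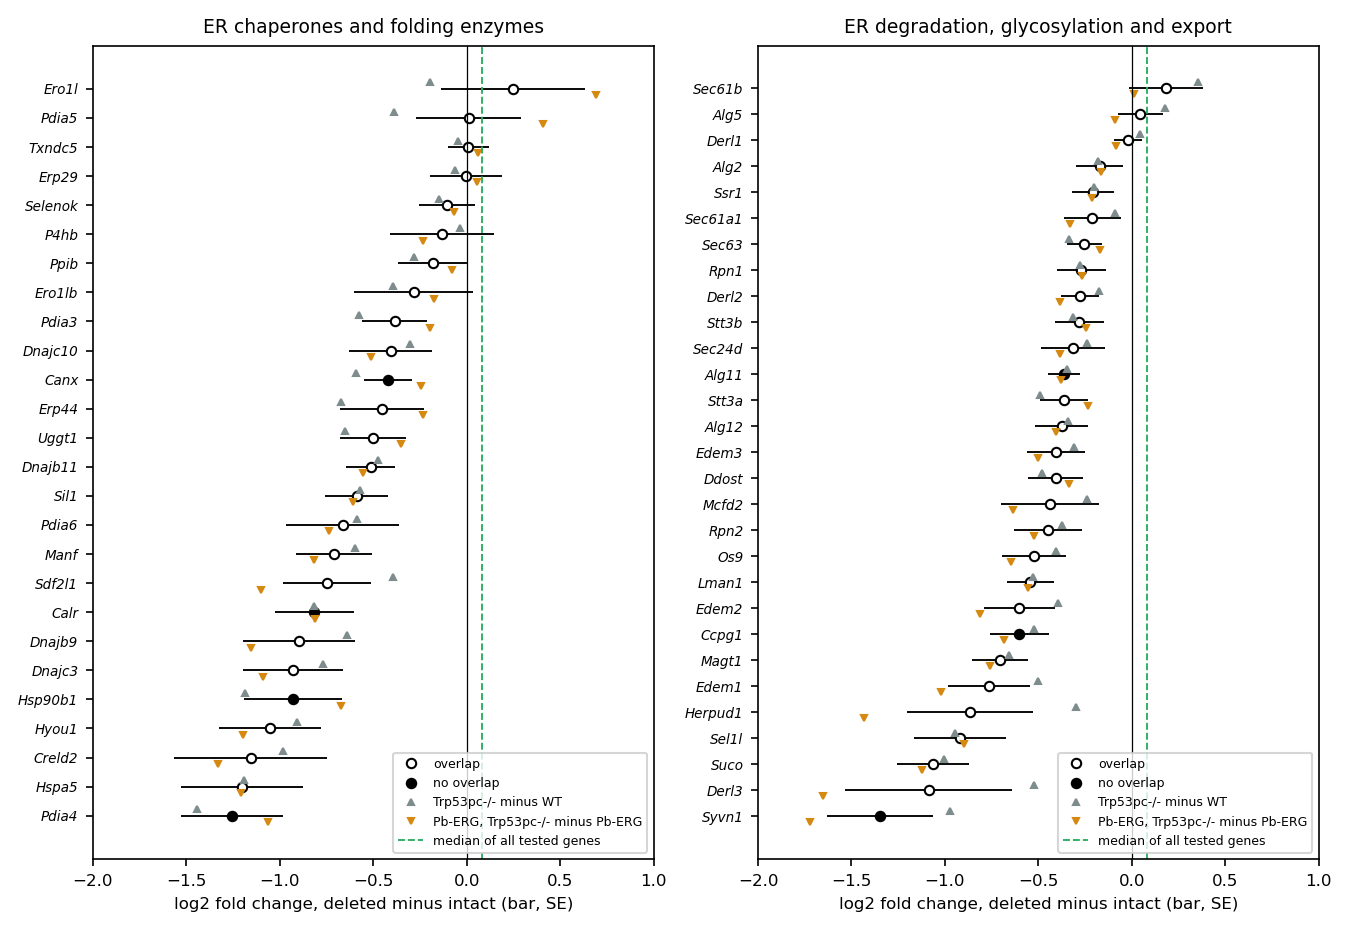
Log2 fold change (deleted minus intact, bar for the SE) of every tested gene of the 2 endoplasmic reticulum lists, chaperones and folding enzymes at the left and degradation, glycosylation and export at the right, with separated genes as filled circles and triangles for each transgene background. Of the 26 and 29 genes, 23 and 27 lie left of 0, from -1.35 for *Syvn1* at the low end.

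3 lists were then written for this pathway after these separated genes had been seen, so they are not independent of them and are described by counts only. Of 26 tested chaperones and folding enzymes, 23 were lower in deleted prostates, 16 at an unadjusted p under 0.05 against 2.29% of all genes, and none was higher at that level. The median log2 fold change was -0.51, beside 0.08 for all genes, with -0.58 in mice without the transgene and -0.54 with it. *Hspa5*, the BiP chaperone, was at 715 ± 125 FPKM in deleted and 1786 ± 860 in intact prostates (-1.20, SE 0.33), 1 pair of libraries from separation. *Hyou1*, its co-chaperone, was at 88.6 ± 23.3 against 197 ± 92.5 FPKM (-1.05, SE 0.27), also 1 pair away. The disulfide isomerase *P4hb* (-0.13, SE 0.28) and the thioredoxin-domain gene *Txndc5* (0.01, SE 0.11) differed less than their errors.

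In the list for degradation, glycosylation and export 27 of 29 genes were lower, where 34.7% of all genes were, and 19 of them at an unadjusted p under 0.05, against 2.29% of all genes, with a median of -0.40. *Suco* (-1.06, SE 0.19), a membrane protein of the endoplasmic reticulum, was 1 of the 69 genes that missed the rule by 1 crossing pair, and had the smallest limma p of these after *Eda2r*. It was at 13.8 to 35.7 FPKM (median 20.1) in deleted and 25.4 to 70.1 (median 47.8) in intact libraries. *Sel1l*, the partner of HRD1 in the membrane, was at 41.6 ± 11.9 FPKM against 81.6 ± 30.3 (-0.92, SE 0.25), and *Magt1*, a subunit of the oligosaccharyltransferase complex, at 36.5 ± 10.7 against 59.1 ± 11.9 (-0.71, SE 0.15). The regulators of the unfolded protein response had smaller differences. Of 14 tested, 12 were lower, where 34.7% of all genes were, and 2 of them at an unadjusted p under 0.05, against 2.29% of all genes. Their median was -0.12 (-0.20 to -0.04 with 1 library left out). *Xbp1* was at 132 ± 15.0 FPKM in deleted and 137 ± 41.9 in intact prostates (-0.01, SE 0.15), *Atf6* at -0.24 (SE 0.27) and *Atf4* at -0.06 (SE 0.19). Between 22 and 25 of the 26 chaperone genes and between 26 and 28 of the 29 others were lower under every alternative processing and with any 1 library left out, with medians from -0.62 to -0.45 and from -0.51 to -0.34. Separation itself was less stable than direction. Of the 7 separated members of both lists, only *Calr* was also separated under the median-ratio scaling and under the scaling without the genes above 1% of fragments.

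Secretory cells and plasma cells both hold much endoplasmic reticulum, and the summed level of their markers is given beside these lists. The 15 luminal secretory markers summed to 2035 to 320840 FPKM in deleted libraries (median 46750) and to 26770 to 134638 in intact ones (median 61178). 10 of the 15 were lower in deleted prostates, where 34.7% of all genes were. Their median of -0.27 became -0.55 without replicate 1 or replicate 2 of the double mutant. Markers of B and plasma cells summed to 19.8 to 592 FPKM (median 77.8) against 6.25 to 792 (median 56.3). Summed over the chaperone list, the level was 5655 to 9045 FPKM in deleted (median 6786) and 8107 to 13547 in intact libraries (median 10512), with replicate 1 of Trp53pc-/- above replicate 2 of Pb-ERG as the overlap. Whether the makeup of the tissue contributed to the lower chaperone levels was not tested.

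The promoters of these genes are shown because 4 of them share a sequence, the endoplasmic reticulum stress element, through which ATF6 and XBP1 act on chaperone genes. It was searched, on both strands, as CCAAT and CCACG separated by any 9 bases. The 250 bases before the RefSeq start (GRCm38.p6) are printed with the match in capitals, as chr19:6046326-6046575 (plus strand) for *Syvn1*, and on the minus strand as chr8:84846932-84847181 for *Calr*, chr11:50325674-50325923 for *Canx* and chr10:86705445-86705694 for *Hsp90b1*. The match of *Calr* and the second match of *Hsp90b1* read on the opposite strand of the gene.

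Syvn1: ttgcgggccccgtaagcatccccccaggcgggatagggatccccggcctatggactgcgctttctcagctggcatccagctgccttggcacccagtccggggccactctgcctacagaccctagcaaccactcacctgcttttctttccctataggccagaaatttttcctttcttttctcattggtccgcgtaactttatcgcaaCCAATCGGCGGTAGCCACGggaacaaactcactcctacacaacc
Calr: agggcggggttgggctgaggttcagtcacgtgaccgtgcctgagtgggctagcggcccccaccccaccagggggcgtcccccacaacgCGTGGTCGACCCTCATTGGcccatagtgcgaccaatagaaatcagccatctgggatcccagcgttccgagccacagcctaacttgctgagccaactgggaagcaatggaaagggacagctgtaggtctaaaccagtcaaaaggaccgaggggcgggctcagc
Canx: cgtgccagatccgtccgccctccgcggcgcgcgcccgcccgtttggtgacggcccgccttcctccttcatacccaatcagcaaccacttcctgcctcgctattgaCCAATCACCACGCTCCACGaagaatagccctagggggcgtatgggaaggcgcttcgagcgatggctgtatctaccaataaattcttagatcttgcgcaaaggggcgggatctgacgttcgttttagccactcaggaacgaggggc
Hsp90b1: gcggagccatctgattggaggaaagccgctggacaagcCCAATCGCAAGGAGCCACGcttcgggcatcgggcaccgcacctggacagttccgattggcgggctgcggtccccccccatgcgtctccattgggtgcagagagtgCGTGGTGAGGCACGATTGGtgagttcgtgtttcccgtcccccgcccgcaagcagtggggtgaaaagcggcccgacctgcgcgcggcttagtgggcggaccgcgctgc

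The match begins 44 bases before the start in *Syvn1*, 162 in *Calr*, 145 in *Canx*, and 212 and 107 in *Hsp90b1*. Over all 27025 genes with a window, 37 held the element (0.137%), and 20 of the 12129 tested genes with one did (0.165%). Among separated genes it was found in 4 of the 17 lower genes with a window (23.5%) and in 0 of the 18 higher ones. It occurred in 7 of 20 genes of the chaperone list (35%), 3 of 24 of the degradation list (12.5%) and 0 of 12 regulators. Turned around, of the 20 tested genes with the element 17 were lower in deleted prostates, while 34.1% of all tested genes with a window were. Their median log2 fold change was -0.40, beside 0.08 for the 12129, and 11 of the 20 were lower at an unadjusted p under 0.05, against 2.29% of all tested genes. The 20 genes do not all hold separate elements. *Alg12* and *Creld2* lie side by side on chromosome 15, and their windows overlap and hold the same match. *Xlr3a*, *Xlr3b* and *Xlr3c* belong to the same gene family. 10 of the 20 belong to the lists above, and the element was searched after these genes had been seen, so the shares describe the same pattern and do not test it. Outside the lists, log2 fold changes were -1.13 for *Xlr3b*, -0.37 for *Xlr3a*, -0.16 for *Xlr3c*, -0.10 for *Pan2* and -0.06 for *Acacb*. They were -0.03 for *Hnrnpa3*, -0.01 for *Ptgdr2*, 0.28 for *Zfp57*, 0.32 for *Adcy3* and 0.36 for *Spats2l*. Of these, only *Xlr3b* was lower at an unadjusted p under 0.05 (limma). A match of letters is not a bound site.

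The remaining genes that were lower belong to no single pathway. *Chordc1*, a co-chaperone of cytosolic HSP90, was at 13.7, 14.6 and 16.8 FPKM in deleted and 17.6, 20.3 and 26.0 in intact libraries (-0.45, SE 0.10). *Slc28a3*, a nucleoside transporter, was at 5.31, 6.99 and 8.36 against 8.46, 10.05 and 12.1 FPKM (-0.49, SE 0.12), and *Tbc1d8b*, a regulator of Rab proteins, at 9.22, 12.5 and 13.8 against 14.6, 17.4 and 19.4 (-0.47, SE 0.11). The gap between the groups was 0.02 on the log2 scale for *Slc28a3* and 0.07 for *Tbc1d8b*. The histone gene *Hist2h3c1* was at 2.51, 5.05 and 6.87 against 8.25, 9.81 and 17.2 FPKM (-1.02, SE 0.22). Histone H3 genes are near-identical copies of each other, so its fragments may be shared with other loci. The zinc finger gene *Zfp9* had a log2 fold change of -0.46 (SE 0.11). Of the others, named after their values were seen, the vesicular transporter *Slc18b1* (-0.46), *Kbtbd7* (-0.33) and *Ccdc127* (-0.22) were at 1.83 to 8.99 FPKM in all libraries. *Ptprn2*, a protein of secretory granules, was at 0.357, 4.34 and 5.94 against 6.51, 8.41 and 13.9 FPKM (-1.3, SE 0.40), a wide spread in the deleted group. *Dmrt2* and *Havcr1* were low throughout. *Havcr1*, which encodes the kidney injury molecule KIM-1, was above 2 FPKM in 2 WT libraries (2.74 and 2.3) and at 0.379 or less in the other 10.

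Under the median-ratio scaling, only *Gm17233*, *Srrm4* and *Psg27* of the 23 genes that were higher stayed separated. Of the 23, *Fhl1*, an X-linked LIM-domain gene known from muscle, is described first. It was at 38.6, 46.8 and 64.1 FPKM in deleted and 22.9, 31.3 and 37.5 in intact libraries (log2 fold change 0.63, SE 0.14), 0.72 without and 0.55 with the transgene. Skeletal muscle markers were also higher in deleted prostates, with all 9 tested above 0, where 65.3% of all genes were. Their median was 0.98, but 0.08 once replicate 3 of the double mutant was left out. Their sum was 64.3 to 810 FPKM (median 130) in deleted and 23.7 to 91.6 (median 73.7) in intact libraries. That replicate had 43.1 FPKM of *Fhl1*, the second lowest of the 6 deleted values. Smooth muscle markers, with a median log2 fold change of -0.01, summed to 160 FPKM in it and to 1740 or more in the other deleted libraries. Their highest sum, 3009 FPKM, was in replicate 2 of Trp53pc-/-, which also had the highest *Fhl1*, 64.1 FPKM. Whether muscle content contributed to the *Fhl1* difference was not tested.

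Among the higher genes, *Mrpl9*, *Atp5l* and *Lamtor3* serve mitochondria or nutrient signalling. None of them was separated under the median-ratio scaling or under the scaling without the genes above 1% of fragments. *Mrpl9*, a protein of the mitochondrial ribosome, was at 24.2, 26.5 and 29.98 FPKM against 14.0, 20.4 and 21.6 (0.44, SE 0.11). *Atp5l*, subunit g of ATP synthase and named after its values were seen, was at 21.6, 24.4 and 33.9 against 8.17, 17.1 and 21.0 FPKM (0.70, SE 0.21). *Lamtor3*, part of the Ragulator complex that anchors mTORC1 to lysosomes, was at 13.8, 14.4 and 24.6 against 8.47, 11 and 11.9 (0.56, SE 0.15), with the highest value in replicate 3 of the double mutant. These genes were grouped after their values were seen, and no list of mitochondrial genes was tested. *Aifm2*, which encodes the ferroptosis suppressor FSP1, was at 4.71, 5.69 and 7.75 against 2.84, 4.22 and 4.71 FPKM (0.47, SE 0.12) and passed the rule by the narrowest gap, 0.000162 on the log2 scale. The antisense gene *Gm17233* followed with a gap of 0.000958 (0.52, SE 0.12).

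*Cep19*, a protein of the centrosome and cilium, was at 10.9, 11.4 and 13.3 FPKM in deleted and 6.40, 8.38 and 10.4 in intact libraries (0.44, SE 0.11). The γ-tubulin complex component *Mzt2* had a log2 fold change of 0.42 (SE 0.11) and the dynein light chain *Dnal4* of 0.45 (SE 0.12). The potassium channel gene *Kcnj8*, found in pericytes and smooth muscle, was at 1.995, 2.58 and 6.21 FPKM against 1.102, 1.63 and 1.80 (0.75, SE 0.19), with its highest values in double mutant replicates 1 and 3 (5.36 and 6.21). *Hddc2* (0.73, SE 0.20), *Abracl* (0.49, SE 0.14), *Zfp13* (0.39, SE 0.10), the pseudogene *Gm12350* (0.46, SE 0.12) and *D330023K18Rik* (0.47, SE 0.12) were the others named by the rule. Of the rest, named after their values were seen, *Mrnip*, a DNA repair gene, was at 2.77 to 4.80 against 1.85 to 2.75 FPKM, and *Srrm4*, a splicing factor of neurons, at 0.122 to 0.797 against 0.0260 to 0.107. *Psg27*, a pregnancy-specific glycoprotein, was at 0.0714 to 1.14 FPKM in deleted libraries and at 0 in 3 of the intact ones, with 0.0463 as the highest of those, but its family shares near-identical sequence. The last of them are *E130218I03Rik* (0.46), *Zfp775* (0.22), *Zbtb8os* (0.16) and the pseudogene *Gm9826* (0.66). *Gm9826* was near the floor, at 0.624 to 1.03 FPKM in deleted and 0 to 0.523 in intact libraries, with at most 36 fragments in any library. *Gm9826* and *Psg27* were so low in intact libraries that they entered the fit through their deleted values.

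Each separated gene has, by the rule, the same direction with and without the transgene. Without the rule's demand across backgrounds, 245 genes (1.39%) had their 3 deleted values on 1 side of the 3 intact values in both backgrounds and in the same direction, 174 higher (0.987%) and 71 lower (0.403%). For the other 198 of these, among them *Eda2r*, *Ephx1* and *Suco*, the ranges crossed between backgrounds. The size of the effect was similar in both backgrounds for *Calr* (-0.82 and -0.81) and *Alg11* (-0.35 and -0.38), and larger with the transgene for *Syvn1* (-0.97 and -1.72) and smaller for *Hsp90b1* (-1.19 and -0.67). The interaction had an unadjusted p under 0.05 in 1 of the 47, *Havcr1*, against 6.43% of all genes. The rule limits differences between the backgrounds, so nothing is read from that share. None of the 47 had an adjusted p under 0.05 for the effect of the transgene (limma, Benjamini-Hochberg), against 31.1% of tested genes. A gene that the transgene moves strongly has a wide range on both sides and rarely passes the rule, so that count follows from the choice.

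**Figure D4:**
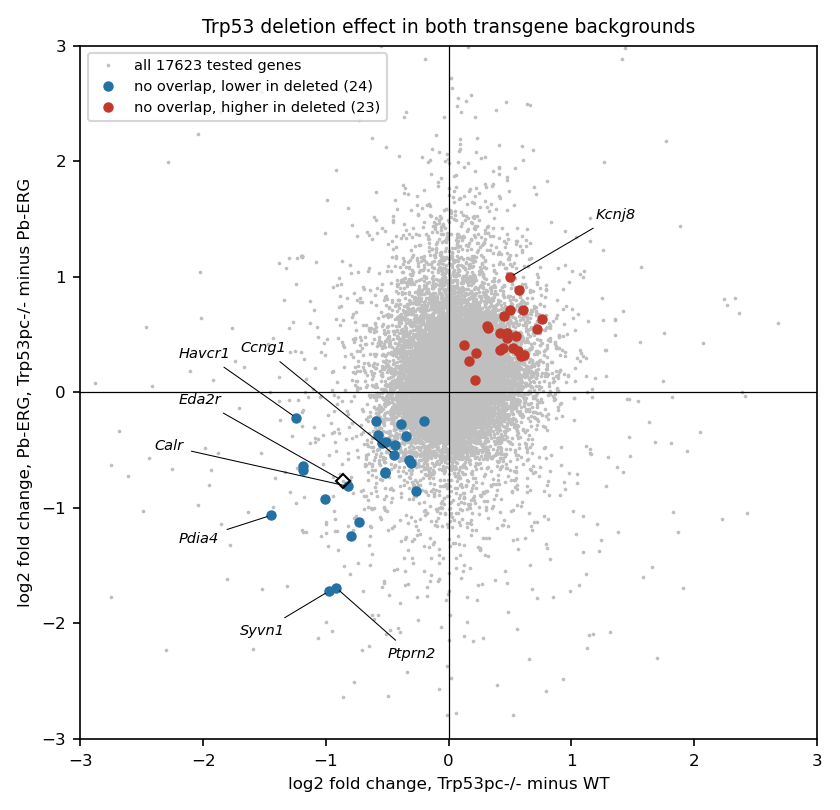
Log2 fold change of *Trp53* deletion without the transgene (x axis, Trp53pc-/- minus WT) and with it (y axis, double mutant minus Pb-ERG) for the tested genes, with the 47 separated genes in colour. All 47 lie in the lower left or upper right quadrant, as the rule fixes, and 31 genes beyond 3 on either axis are outside the plot.

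Over all genes, no interaction between deletion and transgene passed an adjusted p under 0.05 with limma (lowest 0.394), and 1133 (6.43%) had an unadjusted p under 0.05. The 3 with the smallest p were *Dpysl3*, a cytoskeletal protein of neurons (-0.46 without and 1.17 with the transgene), *Stra6*, the retinol uptake receptor (-0.73 and 2.36), and *Aqp3*, a water and glycerol channel (-0.06 and 0.73). Within the backgrounds, limma called 0 genes at an adjusted p under 0.05 for Trp53pc-/- against WT (lowest 0.935, with 908 or 5.15% at an unadjusted p under 0.05) and 3 (0.017%) for double mutant against Pb-ERG mice (lowest 0.0253, with 2276 or 12.9% at an unadjusted p under 0.05). The 3 were *Ociad2*, *Smoc2* and *Acox2*, and none of them is among the 47.

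Near the deleted locus the share of separated genes could not be told from that over all genes. Of 360 tested genes within 10 Mb of *Trp53* 0 were separated, where 0.267% of all tested genes were, and 11.7% had an unadjusted p under 0.05 against 10.1% of all genes. Within 20 Mb there were 2 of 633 (0.316%), *Canx* and *Mrnip*, which lie 19254686 and 19380244 bases away. Chromosome 11 held 4 of the 47 (0.271% of its 1478 tested genes) and chromosome 10 held 7 (0.882% of 794), 3 of those at the *Hsp90b1* locus. Of the 47, 39 were annotated as protein coding. Their median exon length was 2347 bases, beside 2754 for all tested genes. Their median level was 8.63 FPKM (mean of all 12 libraries), 16.3 for the lower and 6.06 for the higher genes, against 4.98 for all tested genes. The log2 fold changes ranged in size from 0.16 to 1.35 with a median of 0.49.

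The genes of cell division were higher in deleted prostates as a list, but no member was separated. All 28 tested G2 and M genes had a higher mean, where 65.3% of all genes did, with a median log2 fold change of 0.51 beside 0.08 for all genes. 7 of the 28 were higher at an unadjusted p under 0.05, against 7.85% of all genes. The median was 0.15 without the transgene and 0.88 with it. The anaphase activator *Cdc20* was at 6.83 ± 10.3 FPKM in deleted and 1.67 ± 1.63 in intact prostates (0.99, SE 0.37). The summed level was 22.6 to 398 FPKM in deleted (median 52.4) and 19.2 to 78.4 in intact libraries (median 30.1), and the 398 came from replicate 3 of the double mutant. Without it, 27 of 28 were higher with a median of 0.24. Of 25 G1 and S genes 24 were higher (0.21), and without that replicate 19 were (0.10).

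The pyrimidine synthesis genes, a subject of the study, were higher for 19 of 21 with a median of 0.22, where 65.3% of all genes were higher, and 3 of the 21 were higher at an unadjusted p under 0.05, against 7.85% of all genes. The median was 0.12 without replicate 3 of the double mutant and 0.14 under the median-ratio scaling. *Umps*, which completes uridine monophosphate synthesis, had a log2 fold change of 0.39 (SE 0.20), the ribonucleotide reductase genes *Rrm1* and *Rrm2* 0.20 (SE 0.24) and 0.49 (SE 0.38), and thymidylate synthase *Tyms* 0.21 (SE 0.19). *Rrm1* took the other sign without replicate 3 of the double mutant (-0.03). *Ctnnb1*, which encodes β-catenin, was at 181 ± 79.8 FPKM in deleted and 145 ± 31.1 in intact prostates (0.23, SE 0.17), and the median of the β-catenin list was 0.01, and -0.09 under the median-ratio scaling. Without and with the transgene, the log2 fold changes were -0.03 and 0.80 for *Umps*, -0.18 and 0.58 for *Rrm1*, and 0.02 and 0.95 for *Rrm2*. They were -0.05 and 0.47 for *Tyms* and -0.08 and 0.55 for *Ctnnb1*. The adjusted p of the interaction was 0.75 to 0.80 for these genes (limma, Benjamini-Hochberg). The median of the pyrimidine list was 0.12 without the transgene and 0.36 with it. None of these genes was separated.

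**Figure D5:**
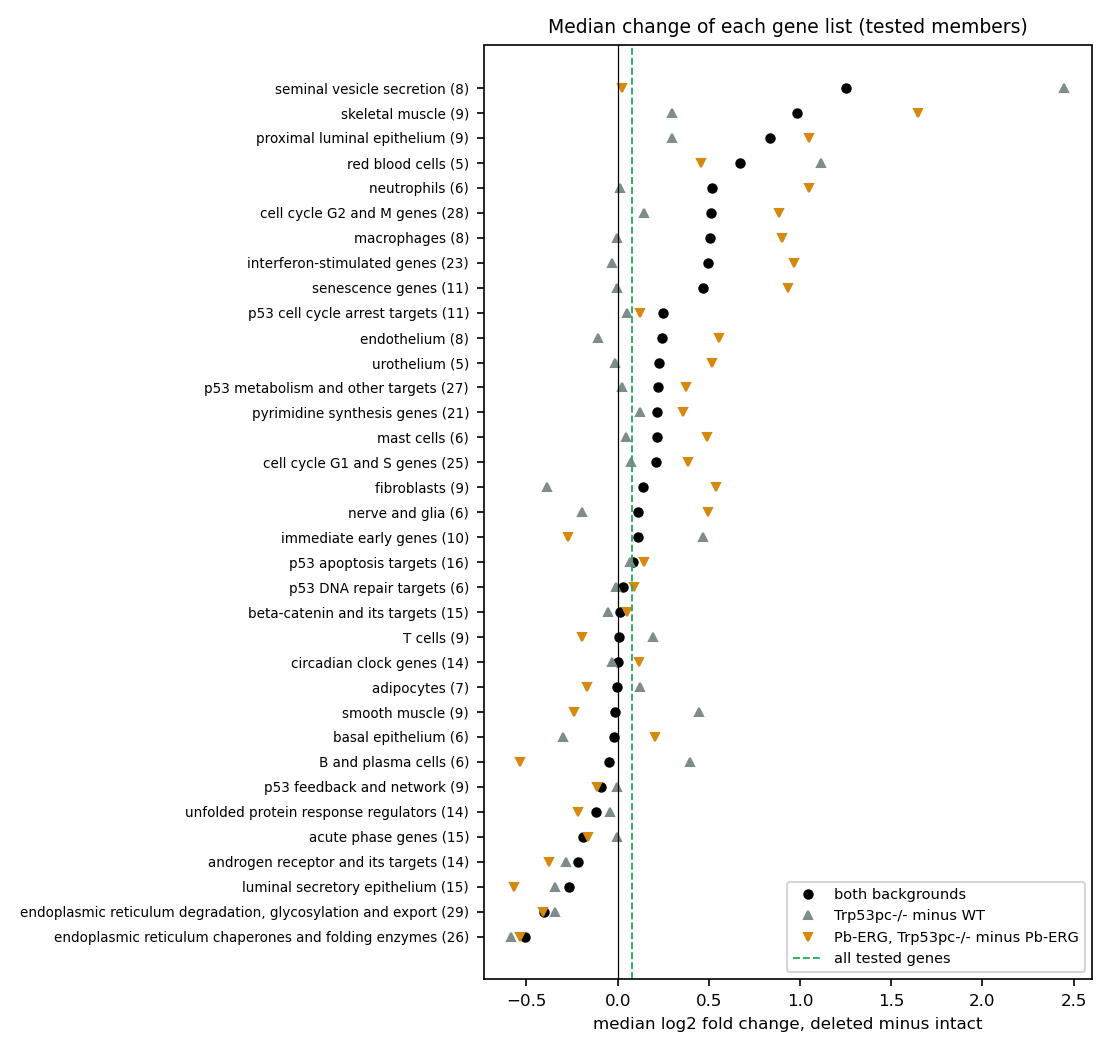
Median log2 fold change (deleted minus intact) of each gene list over all libraries and within each transgene background, with the number of tested genes in brackets and the median over all genes (0.08) as a line. The 2 endoplasmic reticulum lists lie at -0.51 and -0.40 with both backgrounds on the same side, whereas the G2 and M list and the interferon list lie at 0.51 and 0.49 with both backgrounds far apart.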

How the data were processed

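RNA from whole prostates of 12 mice was sequenced as paired-end TruSeq libraries by the authors, aligned to GRCm38/mm10 with STAR (version 2.5.2b in the submitters' processing notes) and summed per gene with RSeQC. The values the authors deposited are FPKM, 1 per gene and library, already normalized for exon length and library depth. Whether counting used strand is not given in the sources used here. FPKM multiplied by exon length and library total gave whole fragments for 100% of values (within 0.01), so depth is known. Between 91.1% and 97.0% of the fragments fell on the listed genes.

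Groups follow the genotype label, and each library is 1 mouse. Genes entered the fit when 3 or more libraries reached 10 fragments at median depth and the total was 15 or more. log2(FPKM + 1) was fitted in limma 3.58.1 (R 4.3.3) with a mean-variance trend and terms for deletion and transgene (9 residual degrees of freedom). Adjusted p-values are Benjamini-Hochberg values over all tested genes. Effects within each background and the interaction came from a fit of 4 group means. The fold changes understate those of genes near 1 FPKM or below. Gene coordinates and exon lengths came with the deposited values. Symbols and gene types were matched to GENCODE M21 or RefSeq GRCm38.p6, and 3126 symbols had no match. Promoter coordinates are those of RefSeq. Promoter windows were searched with Python 3.11.15 (pandas 2.3.3, numpy 2.4.6), and figures were drawn with matplotlib 3.10.9.

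The members and the gene lists were chosen with earlier results of these data known. The genes named by rule were up to 15 separated genes in each direction by limma p with a mean of at least 1 FPKM in the higher group, *Trp53*, *Erg* and *Pbsn*, separated genes of the lists, 13 fixed p53 targets, the 2 separated genes with the smallest gap and the 2 genes with 1 crossing pair and the smallest limma p, the 3 smallest interaction p, and 5 genes of the study. Alternatives were other scalings, pseudocounts, filters and fits, limma voom on the recovered fragments, the replicate number as a block and each library left out.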

Additional observations from a re-analysis of the deposited data

Results flagged for a closer look

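71 genes were checked, the 47 separated genes and the others named by rule. The highest and lowest library of the 6 deleted and of the 6 intact libraries was set against its nearest neighbour. The distance was taken as a share of the range of the 6, both on the log2(FPKM + 1) scale. Levels below are given in FPKM, so the shares cannot be read from them directly. A share over Dixon's 95% critical value for 6 values occurred in 10 of 142 groups. About 1 in 20 groups would pass it if each held independent values of the same normal distribution. Here the groups mix genotypes, share libraries and include genes chosen by these values, so that rate does not apply and nothing is read from the count.

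6 of the 10 fell on replicate 3 of the double mutant. In it *Pbsn* was at 53.3 FPKM with the next deleted library at 5505 (share 0.798), *Gmds* at 14.9 with the next at 36.1 (0.826), *Slc18b1* at 3.30 with the next at 5.33 (0.730) and *Hist2h3c1* at 2.51 with the next at 4.84 (0.631). *Lamtor3* was high in the same library, at 24.6 FPKM with the next at 15.6 (0.788), and so was *Srrm4*, at 0.797 with the next at 0.296 (0.695). Replicate 1 of the double mutant was high for *Cep19*, at 13.3 FPKM with the next at 11.7 (0.645).

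Of the intact libraries, replicate 1 of Pb-ERG was low for *Mrpl9*, at 14.0 FPKM with the next at 18.8 (0.681), and for *Zfp775*, at 0.459 with the next at 0.758 (0.706). Replicate 3 of Pb-ERG was high for *Gmds*, at 59.8 FPKM with the next at 49.3 (0.703).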

How the results depend on the processing

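No setting gave a gene an adjusted p under 0.05 for *Trp53* deletion (limma, Benjamini-Hochberg). The number of separated genes depended on scaling. The 23 higher and 24 lower genes became 45 and 56 under median-ratio scaling, 87 and 30 without the genes above 1% of fragments (15 of the 47 among them), and 174 and 71 when separation was asked within each background, an alternative chosen after seeing the data. Leaving out 1 library gave 23 to 209 higher and 26 to 68 lower genes. The totals were 75, 119 and 50 without WT replicates 1, 2 and 3, 63, 89 and 124 without those of Pb-ERG, 119, 55 and 248 without those of Trp53pc-/- and 87, 85 and 90 without those of the double mutant. Within 10 Mb of *Trp53*, 0 separated genes became 2, 3 without the abundant genes, 2 within 20 Mb and 0 to 6 with 1 library left out.

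The double mutant against Pb-ERG gave 3 genes (adjusted p under 0.05), 5 under median-ratio scaling, 6 without the abundant genes, 0 at a pseudocount of 0.1, 12 without a filter and 0 to 136 with 1 library left out (136 without replicate 2 of the double mutant, 34 without replicate 1 of Pb-ERG). Trp53pc-/- against WT gave 0 to 1. The interaction gave 1 gene without a filter and 0 to 7 with 1 library left out (7 without replicate 1 of Pb-ERG). The G2 and M median was 1.13 with voom, whose scale has a smaller offset, and the urothelium median -0.56 to 0.47 with 1 library left out. *Mdm2* turned to 0.034, 0.032 and 0.019 without replicate 3 of Trp53pc-/- or replicates 1 or 2 of the double mutant (-0.113 to 0.034 with any 1 library left out). *Phlda3* turned to -0.0091 under median-ratio scaling and to -0.034 and -0.061 without replicate 1 of Pb-ERG or replicate 3 of the double mutant (range -0.061 to 0.194), and *Rrm1* to -0.030 without the latter (range -0.030 to 0.303). The cause was not tested. Lists with no gene at 10 fragments in every library gave no value there.

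Whether replicate numbers pair the mice is not given in the labels, and with 3 mice in each genotype these correlations cannot decide it. Same-numbered libraries of different genotypes had correlations of -0.24 to 0.37 (over 0.1 in 8 of 18 pairs). Their median was 0.09, beside -0.05 for libraries of different numbers and genotypes, and 6 of 12 correlated best with their own number. With the replicate number as a block, 0 genes were called (lowest adjusted p 0.520, limma), 1229 were higher and 408 lower at an unadjusted p under 0.05.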

Other observations

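The interferon-stimulated genes were higher in deleted prostates for 21 of 23 members, where 65.3% of all genes were. At an unadjusted p under 0.05, 3 of the 23 were higher, against 7.85% of all genes. The median log2 fold change was 0.49 beside 0.08 for all tested genes. *Isg15*, a ubiquitin-like protein induced by interferon, was at 40.9 ± 58.5 FPKM in deleted and 7.36 ± 7.29 in intact prostates (1.57, SE 0.51), and *Irf7*, the regulator of the type I interferon genes, at 20.4 ± 19.5 against 7.59 ± 7.88 (1.07, SE 0.41). The median of the list was -0.03 without the transgene and 0.97 with it. Its summed level was 85.6 to 766 FPKM in deleted and 72.6 to 314 in intact libraries, with replicate 3 of the double mutant the highest of all 12. Without replicate 1 of Pb-ERG, 17 of 23 were higher with a median of 0.14.

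The counts of the next 5 lists stand beside 65.3% of all genes that were higher and 7.85% that were so at an unadjusted p under 0.05. At that p, 1 of 8 macrophage, 1 of 9 proximal luminal, 2 of 5 red blood cell, 0 of 6 neutrophil and 1 of 11 senescence genes were higher. Macrophage markers were higher for 7 of 8 genes (median 0.51, with -0.0034 without the transgene and 0.90 with it), and the median was 0.27 without replicate 1 of Pb-ERG and 0.31 without replicate 1 of the double mutant. Markers of the proximal luminal epithelium were higher for 8 of 9 (median 0.84, with 0.30 and 1.05 in the backgrounds), with a median of 0.38 without replicate 1 of Pb-ERG and 0.49 without replicate 3 of the double mutant. Those of red blood cells were higher for 5 of 5 (0.67), but their sum was 896 FPKM in replicate 2 of Trp53pc-/- and 168 or less in the other 11 libraries, and the median was 0.10 without that replicate. Neutrophil markers (5 of 6 higher, 0.51) and senescence genes (9 of 11, 0.47) had medians of 0.20 and 0.14 without replicate 3 of the double mutant. Without replicate 1 of Pb-ERG they were 0.34 and 0.25, and the neutrophil median was 0.32 and 0.78 without replicates 1 and 2 of the double mutant. Seminal vesicle secretion genes, whose tissue lies next to the prostate, had a median of 1.25 with sums from 1.87 to 48180 FPKM in deleted and 84.7 to 49651 in intact libraries. That median was 0.78, 2.16 and 2.27 without replicate 2 of the double mutant, replicate 1 of Pb-ERG or replicate 3 of the double mutant, and it turned to -0.55 over the 2 genes with at least 10 fragments in every library. Androgen receptor targets were lower for 10 of 14, where 34.7% of all genes were (median -0.22, -0.35 to -0.11 with 1 library left out). At an unadjusted p under 0.05, 1 of the 14 was lower, against 2.29% of all genes. Medians within 0.25 of 0 were found for basal epithelium, urothelium, fibroblasts, smooth muscle, adipocytes, endothelium, nerve and glia, T cells, B and plasma cells, mast cells, acute phase, immediate early and circadian clock genes. Such a median does not show an unchanged level, as in some lists the backgrounds had opposite signs. Without and with the transgene, the medians were 0.44 and -0.24 for smooth muscle, -0.39 and 0.54 for fibroblasts, and 0.40 and -0.54 for B and plasma cells. Smooth muscle markers summed to 160 to 3009 FPKM in deleted (median 2094) and 604 to 2105 in intact libraries (median 1446). The part of tissue makeup in the separated genes was not tested.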
